A study of Homo sapiens with 12 samples.

Results

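In DU145 prostate cancer cells, 32 autosomal protein-coding genes were silent in one hairpin line and expressed in the other. Silent meant at most 3 counts in all 6 libraries of one hairpin, and expressed meant at least 10 counts in all 6 libraries of the other. 23 genes were lost, that is, silent in the shSigma line and expressed in the shCtrl line, and 9 were gained, with the opposite pattern. They came from 17448 autosomal protein-coding genes open to the rule, in a table of 28747 gene identifiers. Before the limits on gene type, chromosome and symbol, 36 identifiers passed the count limits in the lost direction and 17 in the gained direction. Zinc finger, homeobox, keratin, potassium channel, collagen, claudin and ABC transporter genes, chosen by the start of the symbol, and a short list of single genes were set aside, which removed 4 lost and 3 gained genes. A further 6 lost and 1 gained protein-coding genes were not autosomal, and 3 and 4 identifiers were not annotated as protein-coding. Because the counts of both lines chose the members, the difference between hairpins is given below as a description with no test.

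DU145 cells are a human prostate cancer line in long use. The study compared bulk and stem-like prostate cancer cells with and without a knockdown. Stable lines were made with lentiviral short hairpin RNA and puromycin selection: shCtrl carried a control hairpin and shSigma the knockdown hairpin. Each line was sequenced as adherent culture and as tumor spheres, a non-adherent culture enriched for stem-like cells, with 3 libraries in each of the 4 groups. The labels name no drug treatment in any group. Each hairpin is represented by 1 transduced cell line, so an effect of the knockdown and any other difference between these lines cannot be told apart. The labels describe the 3 libraries of a group as independent replicates.

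As general background, a gene is transcribed where its activating factors are present and its promoter is accessible, and daughter cells can inherit either state. Many promoters of mammalian genes are rich in CpG dinucleotides, and methylation of such promoters is a known form of stable silencing in cancer cells. Genes of germ cells, neurons and early development are often off in epithelial lines, and their low expression in a culture can come from few cells. In bulk RNA, fewer expressing cells and less RNA per cell cannot be told apart, and this holds for every level given here.

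Total counts were 16472722 to 26957777 per library. The epithelial markers KRT8, KRT18, EPCAM and CDH1 had at least 10 counts in every library. Levels are given in CPM, counts scaled by library total and TMM factor. EPCAM (61.9 against 612.9 CPM) and CDH1 (27.8 against 726.3 CPM) had far lower mean levels in shSigma than in shCtrl tumor spheres. The part of this shift in the levels of the 32 genes was not tested. Lists of 5 markers each for other cells summed to 65.0 to 119.7 CPM (neuroendocrine, with CHGA and INSM1 at 0), 3.33 to 25.1 CPM (fibroblast), 0.202 to 1.21 CPM (leukocyte) and 0.127 to 2.87 CPM (endothelial) per library.

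Sequences upstream of 6 members are shown because they include CpG-rich and CpG-poor starts and genes whose values matter most below. Each is the 250 bases before the RefSeq start on the gene's own strand, from the RefSeq promoter table for GRCh38.p14, with every CpG in capitals. TP73 and TBX18 are lost genes with CpG-rich starts, SLC15A1 is the lost gene with the largest difference between cultures, and TSLP has the fewest CpG of the lost genes with an entry. MYBPH and RHBDL2 are gained genes with few CpG. The other gained genes with an entry, ACOXL, PXMP4 and PDZK1IP1, had 17, 8 and 7 CpG in the same stretch. The 6 sequences therefore stand for neither group.
TP73, chr1:3652266-3652515, plus strand: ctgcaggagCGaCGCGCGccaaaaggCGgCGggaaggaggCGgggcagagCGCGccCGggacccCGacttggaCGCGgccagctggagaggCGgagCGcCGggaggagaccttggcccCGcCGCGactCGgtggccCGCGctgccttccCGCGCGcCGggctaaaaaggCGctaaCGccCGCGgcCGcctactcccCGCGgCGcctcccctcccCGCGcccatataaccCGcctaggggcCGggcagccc
SLC15A1, chr13:98752673-98752922, minus strand: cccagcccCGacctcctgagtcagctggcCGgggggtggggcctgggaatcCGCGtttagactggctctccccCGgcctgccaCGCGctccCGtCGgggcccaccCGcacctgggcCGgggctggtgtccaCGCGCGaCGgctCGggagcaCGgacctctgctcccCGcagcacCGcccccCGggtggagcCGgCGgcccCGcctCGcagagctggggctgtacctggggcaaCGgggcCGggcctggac
TBX18, chr6:84764599-84764848, minus strand: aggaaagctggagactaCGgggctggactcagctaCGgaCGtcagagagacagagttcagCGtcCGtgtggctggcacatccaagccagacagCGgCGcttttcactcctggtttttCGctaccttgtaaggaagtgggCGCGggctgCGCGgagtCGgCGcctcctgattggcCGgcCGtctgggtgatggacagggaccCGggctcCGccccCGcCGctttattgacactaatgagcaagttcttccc
TSLP, chr5:111069812-111070061, plus strand: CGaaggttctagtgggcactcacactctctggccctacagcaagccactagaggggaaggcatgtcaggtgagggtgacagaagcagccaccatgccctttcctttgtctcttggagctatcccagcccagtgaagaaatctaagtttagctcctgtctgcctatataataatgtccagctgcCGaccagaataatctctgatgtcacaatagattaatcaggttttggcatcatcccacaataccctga
MYBPH, chr1:203175827-203176076, minus strand: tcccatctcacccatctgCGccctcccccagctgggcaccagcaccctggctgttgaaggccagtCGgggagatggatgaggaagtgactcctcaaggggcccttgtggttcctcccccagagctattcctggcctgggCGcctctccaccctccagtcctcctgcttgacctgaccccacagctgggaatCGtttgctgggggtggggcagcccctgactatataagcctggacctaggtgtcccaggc
RHBDL2, chr1:38941831-38942080, minus strand: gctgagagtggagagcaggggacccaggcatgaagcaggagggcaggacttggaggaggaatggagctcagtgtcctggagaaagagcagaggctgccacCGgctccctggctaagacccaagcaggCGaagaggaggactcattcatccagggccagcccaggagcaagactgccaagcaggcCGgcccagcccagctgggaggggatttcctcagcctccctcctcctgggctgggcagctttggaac

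In the 250 bases shown, TP73 had 38 CpG, SLC15A1 26, TBX18 20, MYBPH 4, RHBDL2 3 and TSLP 2. No annotated exon lies in these 6 stretches. Over the 300-base promoter window, which adds 50 bases after the start, the GC content was 78.7% for TP73, 76.3% for SLC15A1, 64.7% for MYBPH, 63.0% for RHBDL2, 59.3% for TBX18 and 48.0% for TSLP. The GC box GGGCGG, searched on both strands, was in the windows of TP73, SLC15A1 and TBX18 and not in those of TSLP, MYBPH and RHBDL2. Of all 27305 promoters of this length, 44.6% hold it. Among gained genes with an entry but not shown, ACOXL and PXMP4 held it and PDZK1IP1 did not. The TATA box TATAAA, also searched on both strands, was in none of the 6 windows and is in 11.95% of all promoters. Only this exact string was searched, so variants such as TATATAAG, near the end of the MYBPH stretch shown, were not counted. Only 15 of the 23 lost genes and 5 of the 9 gained genes had an entry in the promoter table, which is under 80%, so a comparison of promoter composition over the whole of either group is void and none is given. KIF5A, TRPS1, KRBOX1, SLC35F1, CLIC6, SLC52A1, CDYL2, TNFRSF11B, IQCA1, SLC38A3, SLC13A3 and SLC43A3 had no entry.

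The 23 lost genes lay on 17 chromosomes, with at most 3 on any one, and no pair lay within 1 Mb. The nearest pair, TP73 and ANKRD65 on chromosome 1, was 2230.75 kb apart. In the 6 shCtrl libraries the mean level of a lost gene was 0.761 to 6.78 CPM, with a median of 1.95 CPM, so these were genes of low expression even where they were on. In shSigma, 65 of the 138 values were 0, and the 23 genes together had 109 counts in 6 libraries. TBX18, MIXL1 and RNF175 had no count in any shSigma library. Per kilobase of exon the shCtrl levels ran from 0.0554 CPM for PIEZO2 to 1.64 CPM for KRBOX1, with a median of 0.424 CPM.

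**Figure D1:**
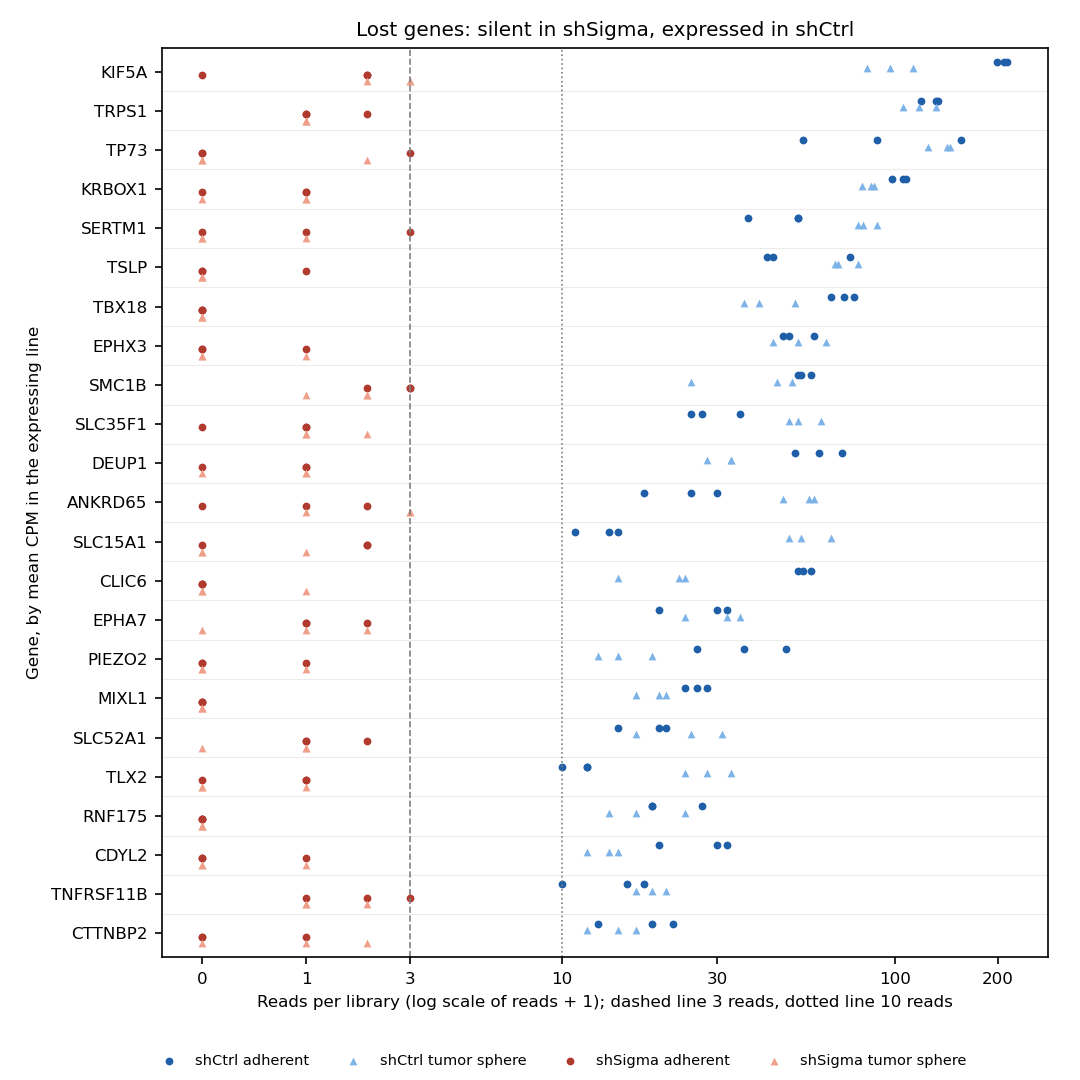
Counts of the 23 lost genes in each of the 12 libraries on a log axis of reads + 1, ordered by mean CPM in shCtrl, with blue symbols for shCtrl and red for shSigma, circles for adherent and triangles for tumor sphere libraries. All red symbols lie at or left of the 3-count limit and all blue symbols at or right of the 10-count limit, as the choice of genes requires, and SLC15A1, TLX2 and ANKRD65 show triangles well to the right of the circles.

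Of the lost genes, 5 encode DNA-binding factors of development or of the p53 family. TP73, a relative of the p53 tumor suppressor gene, had 54, 89 and 156 counts in shCtrl adherent and 145, 125 and 142 in shCtrl tumor sphere libraries, against 3, 0 and 0 and 0, 2 and 0 in the corresponding shSigma libraries. Its adherent shCtrl libraries were spread widely and its tumor sphere libraries lay close together. TRPS1, a GATA-type transcriptional repressor, had 119, 132 and 134 counts in shCtrl adherent and 106, 118 and 132 in shCtrl tumor sphere libraries, against 2, 1 and 1 and 1, 1 and 1 in shSigma. TBX18, a T-box factor of heart and ureter development, had 71, 76 and 65 counts in adherent and 36, 51 and 40 in tumor sphere shCtrl libraries. With no count in shSigma, its shCtrl level was at least 57.7-fold higher for adherent libraries and at least 44.3-fold higher for tumor sphere libraries, set against 3 counts over the 3 libraries of the silent group. MIXL1, a homeobox gene of mesendoderm formation, reached only 24 to 28 counts in adherent and 17 to 21 in tumor sphere shCtrl libraries, which put the same bound at 21.2-fold and 20.2-fold. TLX2, a homeobox gene of enteric neurons, lay at the edge of the rule with 10, 12 and 12 counts in adherent shCtrl cells and 28, 24 and 33 in tumor spheres.

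KIF5A, the kinesin motor heavy chain of neuronal transport, was the most expressed lost gene. It had 208, 199 and 213 counts in shCtrl adherent and 83, 97 and 113 in shCtrl tumor sphere libraries, against 2, 0 and 2 and 3, 3 and 2 in shSigma. Its ratio of shCtrl to shSigma was 126.6 in adherent cells (95% exact counting interval 49.2 to 466.0) and 38.3 in tumor spheres (19.2 to 89.6). These intervals, like the bounds above, rest on counts pooled over the 3 libraries of a group and cover counting error only. They leave out the spread between replicates, which exceeded counting noise, and the reads carried no molecular identifiers. DEUP1, which builds the deuterosomes of multiciliated cells, had 70, 51 and 60 counts in adherent and 28, 33 and 33 in tumor sphere shCtrl libraries, against 0, 1 and 1 and 1, 0 and 1 in shSigma. SMC1B, the cohesin subunit of meiosis, was the member with the most residual counts. It had 57, 52 and 53 counts in adherent and 25, 45 and 50 in tumor sphere shCtrl libraries, against 3, 2 and 3 and 2, 1 and 2 in shSigma, a ratio of 16.5 (8.19 to 39.0) in adherent cells and 25.1 (10.5 to 78.7) in tumor spheres. CTTNBP2, a cortactin-binding protein of neurons, was the lowest lost gene, with 12 to 22 counts per shCtrl library.

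Among genes for secreted and surface proteins, TSLP, an epithelial cytokine that activates dendritic cells, had 74, 42 and 44 counts in adherent and 78, 67 and 68 in tumor sphere shCtrl libraries, and in shSigma a single count, in adherent replicate 1. TNFRSF11B, the decoy receptor for the osteoclast factor RANKL, had 10 to 18 counts in adherent and 17 to 21 in tumor sphere shCtrl libraries and was detected in every shSigma library at 1 to 3 counts. Its ratio of 5.99 (2.54 to 17.2) in adherent cells was the smallest of any member, and it was 14.9 (5.52 to 56.6) in tumor spheres. EPHA7, an ephrin receptor kinase, had 20 to 32 counts in adherent and 24 to 35 in tumor sphere shCtrl libraries. PIEZO2, a mechanically gated cation channel, had 48, 36 and 26 counts in adherent and 19, 13 and 15 in tumor sphere libraries of shCtrl and 2 counts in all of shSigma. SERTM1, a gene for a small membrane protein, had 37, 52 and 52 counts in adherent and 78, 89 and 81 in tumor sphere shCtrl libraries, so the cultures did not overlap. In shSigma it had 1, 0 and 3 counts in adherent and 0, 1 and 0 in tumor sphere libraries.

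The transporter and enzyme genes were all of low level. SLC15A1, the proton-coupled peptide transporter of the intestine, had 15, 11 and 14 counts in adherent and 49, 65 and 53 in tumor sphere shCtrl libraries. SLC35F1, a member of the nucleotide-sugar transporter superfamily, had 27, 35 and 25 counts in adherent and 61, 52 and 49 in tumor sphere shCtrl libraries, against 0, 1 and 1 and 1, 2 and 1 in shSigma. In both genes every tumor sphere library of shCtrl was above every adherent one. SLC52A1, a riboflavin transporter, had 15 to 21 counts in adherent and 17 to 31 in tumor sphere shCtrl libraries. CLIC6, of the chloride intracellular channel family, had 54, 57 and 52 counts in adherent and 15, 24 and 23 in tumor sphere shCtrl libraries, with a single count in all of shSigma. EPHX3, an epoxide hydrolase of the skin barrier, had 47, 49 and 58 counts in adherent and 63, 44 and 52 in tumor sphere shCtrl libraries, against 1, 0 and 0 and 0, 1 and 0 in shSigma.

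Of the remaining lost genes, KRBOX1, which encodes a KRAB-box protein, was even across cultures, with 108, 106 and 98 counts in adherent and 85, 87 and 80 in tumor sphere shCtrl libraries, against 0, 1 and 1 and 0, 1 and 1 in shSigma. ANKRD65, an ankyrin repeat gene, had 25, 18 and 30 counts in adherent and 47, 58 and 56 in tumor sphere shCtrl libraries, against 0, 2 and 1 and 3, 3 and 1 in shSigma. CDYL2, a chromodomain gene, had 20 to 32 counts in adherent and 12 to 15 in tumor sphere shCtrl libraries. RNF175, a RING finger gene with no count in shSigma, had 14 to 27 counts in shCtrl.

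Among lost genes that overlap another gene, KIF5A and TP73 have an expressed partner. KIF5A overlaps DCTN2 on the opposite strand, which had 2640 to 4508 counts in every library. TP73 overlaps TP73-AS1 (712 to 1269 counts) and WRAP73 (345 to 830 counts), both on the opposite strand. The library kit kept strand, but whether the counting used it is not stated, and how reads in the shared stretches were assigned was not tested. In shSigma, KIF5A and TP73 had at most 3 counts per library, while DCTN2, TP73-AS1 and WRAP73 had at least 2640, 712 and 345. The overlapping genes of KRBOX1, TBX18, PIEZO2 and CTTNBP2, among them CFTR, had at most 2 counts in any library.

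The difference between cultures within the expressing line was tested gene by gene. The rule did not choose its direction, but it asked for at least 10 counts in every library of both cultures, which limited how far a member could differ between them and left out CA8, for example, for its low tumor sphere counts. The numbers of members higher and lower below are therefore shaped by the choice of genes. In shCtrl, 8 of the 23 lost genes were higher in tumor spheres than in adherent cells and 3 were lower at an edgeR adjusted p under 0.05, beside 27.4% of all 13800 genes tested that were higher and 26.3% that were lower. Among the 12829 tested genes with at least 10 counts in all 6 shCtrl libraries these shares were 26.3% and 26.9%. The other 12 lost genes did not pass. As shares, 34.8% of the lost genes were higher and 13.04% lower, and their median log2 fold change was 0.33, against 0.04 over all genes tested. With 23 genes of low counts, these shares are a description and mark nothing particular to the lost genes.

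SLC15A1 rose most, from 0.531 ± 0.0583 to 3.04 ± 0.483 CPM (SD, n = 3 each), a log2 fold change of 2.50 (SE 0.22, edgeR adjusted p = 5.09e-05). TLX2 rose from 0.455 ± 0.0638 to 1.54 ± 0.189 CPM (1.75 on the log2 scale, SE 0.24, edgeR adjusted p = 0.000517). ANKRD65 rose from 0.968 ± 0.211 to 2.92 ± 0.242 CPM (1.58 on the log2 scale, SE 0.20, edgeR adjusted p = 0.000405). In each of these 3 genes the cultures did not overlap in any library. SLC35F1 (log2 fold change 1.34, edgeR adjusted p = 0.00181) and SERTM1 (1.26, edgeR adjusted p = 0.00103) also rose beyond 2-fold. TSLP rose by 0.87 on the log2 scale (edgeR adjusted p = 0.0141), a call lost without adherent replicate 2 (0.76, adjusted p = 0.0586) or without tumor sphere replicate 1 (0.71, adjusted p = 0.0537). SLC52A1 (0.83, edgeR adjusted p = 0.0495) and TNFRSF11B (0.82, edgeR adjusted p = 0.0376) passed narrowly. Leaving out 1 library ended the call of SLC52A1 for every library but tumor sphere replicate 2 (adjusted p up to 0.205 over all alternatives) and that of TNFRSF11B for every library but adherent replicate 1 (up to 0.189).

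CLIC6 fell most among the lost genes, from 2.18 ± 0.201 to 1.12 ± 0.226 CPM (log2 fold change −0.95, SE 0.21, edgeR adjusted p = 0.00556). KIF5A fell from 8.27 ± 0.244 to 5.30 ± 0.419 CPM (−0.64, SE 0.12, edgeR adjusted p = 0.00255), with no overlap between cultures. DEUP1 fell from 2.40 ± 0.267 to 1.71 ± 0.0991 CPM (−0.49, SE 0.17, edgeR adjusted p = 0.0394), and this call held only without adherent replicate 3 among the 6 single libraries left out, with adjusted p values up to 0.185 over all alternatives. Without adherent replicate 2 or without tumor sphere replicate 1, the number of lost genes higher in tumor spheres was 5 instead of 8. TP73, with its spread adherent libraries, did not pass in the fit of shCtrl alone (0.91, SE 0.35, edgeR adjusted p = 0.0672). With every library kept it passed with DESeq2 (0.895, adjusted p = 0.0148) and in 1 edgeR fit of all 12 libraries (0.91, adjusted p = 0.0424). It also passed in edgeR without adherent replicate 3 (1.32, adjusted p = 0.00122). PIEZO2 (−0.77, SE 0.30, edgeR adjusted p = 0.0595) passed without adherent replicate 3 (−1.03, adjusted p = 0.00961) or without tumor sphere replicate 1 (−1.02, adjusted p = 0.0431), and CDYL2 (−0.55, SE 0.29, edgeR adjusted p = 0.136) without adherent replicate 1 (−0.80, adjusted p = 0.0304). For SMC1B (95% interval −0.43 to 0.44) and MIXL1 (−0.39 to 0.42) the interval of the log2 fold change lay on both sides of 0, and that of RNF175 ran from −0.35 to 0.74.

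**Figure D2:**
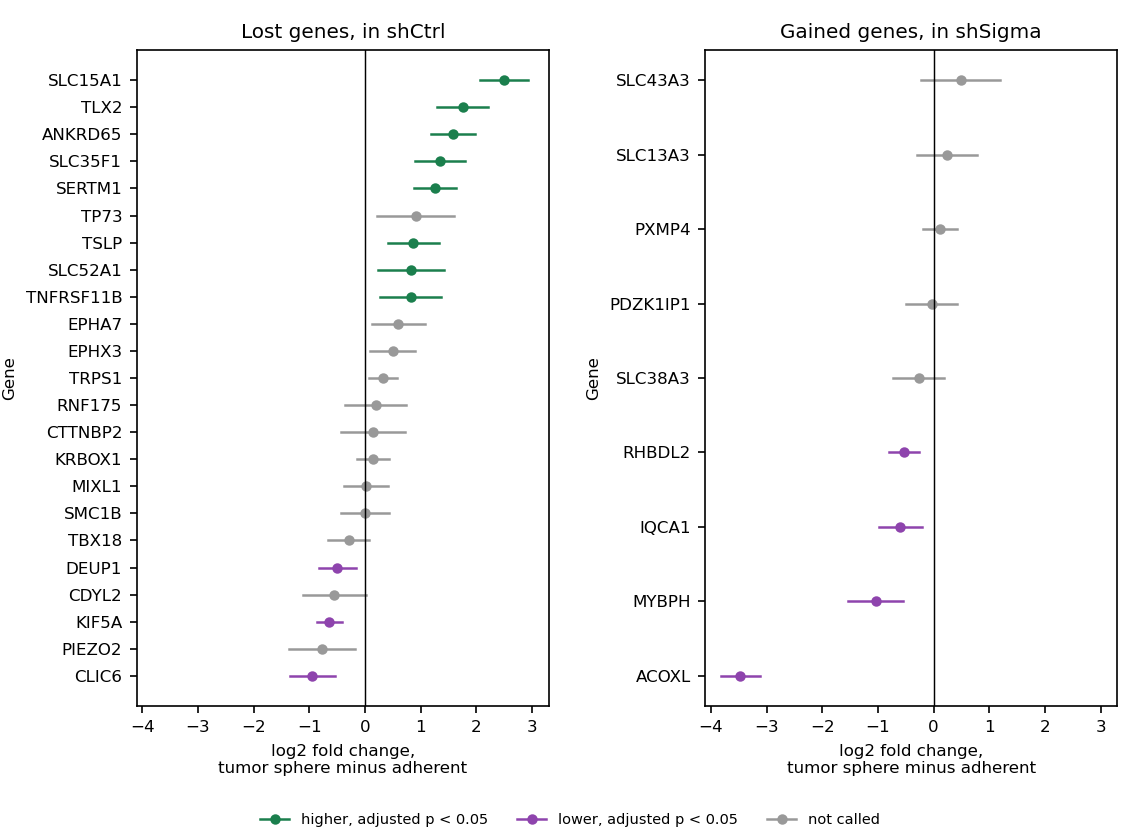
Log2 fold change of tumor sphere minus adherent libraries for the 23 lost genes within shCtrl (left) and the 9 gained genes within shSigma (right), with points for the edgeR estimate, bars for its 95% interval by normal approximation, green for higher and purple for lower at an adjusted p under 0.05, and gray for not called. SLC15A1 lies at 2.50 at the top of the lost genes, and ACOXL at −3.47 lies apart from all the other gained genes.

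The 9 gained genes lay on 5 chromosomes, and again no pair lay within 1 Mb. The nearest pair, RHBDL2 and PDZK1IP1 on chromosome 1, was 8241.75 kb apart. Their mean level in the 6 shSigma libraries was 0.917 to 4.90 CPM, with a median of 2.51 CPM. In shCtrl, 21 of the 54 values were 0 and the 9 genes together had 50 counts, and no gained gene was at 0 in all 6 shCtrl libraries. IQCA1 came nearest, with a single count in tumor sphere replicate 1. Per kilobase of exon the shSigma levels ran from 0.172 CPM for SLC13A3 to 2.70 CPM for MYBPH, with a median of 0.471 CPM.

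MYBPH, a myosin-binding protein of muscle, was the most expressed gained gene. It had 150, 162 and 92 counts in shSigma adherent and 61, 62 and 60 in shSigma tumor sphere libraries, against 0, 1 and 1 and 2, 0 and 1 in shCtrl. The ratio of shSigma to shCtrl was 247.4 in adherent cells (95% exact counting interval 68.0 to 2050) and 58.3 in tumor spheres (19.6 to 285.3). RHBDL2, an intramembrane rhomboid protease, had 92, 95 and 103 counts in adherent and 62, 68 and 56 in tumor sphere shSigma libraries, against 1, 1 and 1 and 2, 2 and 1 in shCtrl. IQCA1, an ATPase-domain gene with an IQ motif, had 69, 44 and 74 counts in adherent and 40, 39 and 35 in tumor sphere shSigma libraries. PDZK1IP1, a small membrane protein also known as MAP17, had 39, 55 and 36 counts in adherent and 42, 35 and 41 in tumor sphere shSigma libraries, so the cultures overlapped. In shCtrl it had 0, 0 and 1 and 2, 1 and 0 counts.

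A pair of gained genes is linked to peroxisomes by homology or by its known product. ACOXL, which resembles the acyl-CoA oxidases, had 154, 142 and 176 counts in adherent shSigma cells and only 10, 15 and 14 in tumor spheres, the largest difference between cultures among the 32 genes. In shCtrl it had 0, 2 and 2 counts in adherent and 0, 1 and 1 in tumor sphere libraries. Its ratio of shSigma to shCtrl was 144.5 (56.1 to 532.6) in adherent cells and 18.6 (4.82 to 159.3) in tumor spheres. PXMP4, a peroxisomal membrane protein, had 49, 46 and 59 counts in adherent and 50, 49 and 55 in tumor sphere shSigma libraries, so its cultures overlapped, against 0, 1 and 2 and 0, 0 and 1 in shCtrl.

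The other 3 gained genes encode solute carriers. SLC38A3, a glutamine transporter of liver and kidney, had 52, 42 and 32 counts in adherent and 37, 28 and 32 in tumor sphere shSigma libraries, against 3, 1 and 2 and 2, 0 and 2 in shCtrl. SLC13A3, a dicarboxylate transporter, had 21, 18 and 20 counts in adherent and 26, 25 and 14 in tumor sphere shSigma libraries, against 2, 1 and 0 and 0, 0 and 0 in shCtrl. SLC43A3, a purine nucleobase transporter, had 16, 17 and 14 counts in adherent and 14, 16 and 31 in tumor sphere shSigma libraries, against 2, 1 and 1 and 0, 3 and 2 in shCtrl, a ratio of 14.4 (5.26 to 55.0) in adherent cells and 11.7 (4.73 to 37.2) in tumor spheres. SLC13A3 shares its strand with the overlapping gene TP53RK, which had 253 to 546 counts in every library. ACOXL overlaps MIR4435-2HG (64 to 470 counts) and RHBDL2 overlaps RRAGC-DT (8 to 25 counts), both on the opposite strand.

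**Figure D3:**
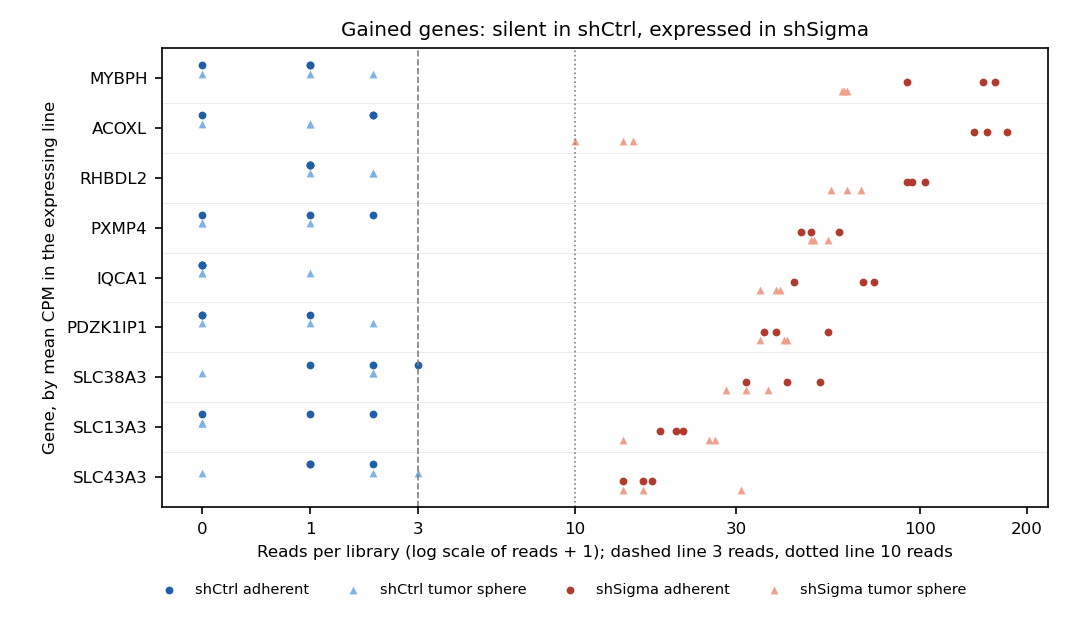
Counts of the 9 gained genes in each of the 12 libraries on a log axis of reads + 1, ordered by mean CPM in shSigma, with blue symbols for shCtrl and red for shSigma, circles for adherent and triangles for tumor sphere libraries. The ACOXL triangles at 10 to 15 counts stand far left of its circles at 142 to 176 counts, while the 2 cultures of PXMP4 lie together.

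Within shSigma, none of the 9 gained genes was higher in tumor spheres at an edgeR adjusted p under 0.05 and 4 were lower, beside 21.9% higher and 25.2% lower of all 13622 genes tested. Among the 12818 tested genes with at least 10 counts in all 6 shSigma libraries, 21.7% were higher and 25.4% lower. The same limit shaped these numbers, and the other 5 gained genes did not pass. At an unadjusted p under 0.05 the number higher was also 0, as it was with DESeq2. The median log2 fold change of the 9 was −0.27, against 0.00 over all genes tested. ACOXL fell from 7.69 ± 0.686 to 0.680 ± 0.155 CPM (SD, n = 3 each), an 11.1-fold drop (log2 fold change −3.47, SE 0.18, edgeR adjusted p = 7.28e-06). MYBPH fell from 6.62 ± 1.98 to 3.18 ± 0.105 CPM (−1.04, SE 0.25, edgeR adjusted p = 0.0121), IQCA1 from 3.03 ± 0.692 to 1.98 ± 0.111 CPM (−0.59, SE 0.20, edgeR adjusted p = 0.0394) and RHBDL2 from 4.74 ± 0.314 to 3.23 ± 0.331 CPM (−0.53, SE 0.14, edgeR adjusted p = 0.0144). All 4 genes had every tumor sphere library below every adherent one.

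ACOXL held its call under every alternative (adjusted p up to 0.000225), and the other 3 did not. The number of gained genes lower in tumor spheres was 1 without shSigma tumor sphere replicate 1, 2 without replicate 2 and 2 without replicate 3. MYBPH stayed near the threshold without tumor sphere replicate 1 (adjusted p = 0.0557) or replicate 2 (0.0517), and RHBDL2 without replicate 1 (0.0522) or replicate 3 (0.0567), while RHBDL2 also lost its call with DESeq2 (adjusted p = 0.0974). IQCA1 lost its call without any 1 tumor sphere library and without adherent replicate 1 or 3. It also lost its call with DESeq2 and with replicate number as a block (adjusted p up to 0.160 over all alternatives). PXMP4 had a log2 fold change of 0.11 (95% interval −0.19 to 0.41), PDZK1IP1 −0.03 (−0.49 to 0.42) and SLC43A3 0.49 (−0.23 to 1.2015).

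At the edge of the rule, the lowest expressed values inside were 10 counts for TLX2 and TNFRSF11B and 11 for SLC15A1 among lost genes, and 10 for ACOXL and 14 for SLC13A3 and SLC43A3 among gained genes. Just outside, C12orf56 fell short with a minimum of 9 counts in shCtrl, and CA8 and SOX17 with 8. CA8, a carbonic anhydrase relative, had 161, 130 and 132 counts in shCtrl adherent and 10, 8 and 9 in shCtrl tumor sphere libraries, with at most 1 count in shSigma. Members reaching the limit of 3 counts in shSigma included ANKRD65, KIF5A and SERTM1, while DMRT2, GASK1A and RIBC2 missed it at 4. Among gained genes NKX2-5 and TMEM225B fell short with a minimum of 9 counts in shSigma and CCDC187 with 8, and ACSL5 and SATB1 reached 4 counts and ANKFN1 5 counts in shCtrl. SATB1, a chromatin organizer, had 158 to 232 counts per shSigma library, more in each of the 6 than any gained member.

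The nearest protein-coding gene on each side of every member was examined next, among genes that passed the filter on low counts in both cultures. Genes that met the count limits themselves were not taken as neighbors, so the genes most completely silent in one line were left out of these counts. A neighbor was called at an edgeR adjusted p under 0.05 with an absolute log2 fold change over 1. Of the 46 neighbors of lost genes, 3 were higher and 3 lower in shSigma than in shCtrl in adherent cells, beside 7.59% higher and 6.13% lower of all 13764 genes tested. In tumor spheres 1 was higher and 5 were lower, beside 5.94% and 7.17% of 13774. These are shares of 6.52% and 6.52% in adherent cells and 2.17% and 10.9% in tumor spheres. The median log2 fold change of the neighbors was −0.30 in adherent cells and −0.10 in tumor spheres, against −0.01 and 0.00 over all genes tested. The median distance to the member was 61.7 kb.

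RIBC2, which encodes a protein inside ciliary microtubules, was the neighbor with the largest fall. It starts 0.074 kb from SMC1B on chromosome 22 and is transcribed away from it on the other strand. It had 144, 128 and 158 counts in shCtrl adherent and 114, 145 and 136 in shCtrl tumor sphere libraries, against 4, 3 and 3 and 4, 4 and 1 in shSigma. No library of one line overlapped the other, and RIBC2 missed membership because its shSigma counts reached 4, above the limit of 3. Its log2 fold change was −5.15 in adherent cells (SE 0.21, edgeR adjusted p = 5.46e-06) and −5.47 in tumor spheres (SE 0.27, edgeR adjusted p = 1.46e-08). On the other side of SMC1B, 2.11 kb away, FAM118A was not called in either culture (log2 fold change −0.44 and −0.51). RIBC2 and GASK1A are also the genes named above as just outside the limit on silent counts.

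GASK1A, a Golgi-associated kinase relative 36.3 kb from KRBOX1, had 37 to 47 counts in adherent and 26 to 42 in tumor sphere shCtrl libraries and 0 to 4 in shSigma (log2 fold change −3.71 and −4.26, edgeR adjusted p = 0.000645 and 2.68e-06). WWOX, an oxidoreductase gene at a common fragile site, lay 1385 kb from CDYL2 and fell from 6.92 ± 0.474 to 1.09 ± 0.233 CPM in adherent cells (log2 fold change −2.72, edgeR adjusted p = 2.92e-05) and from 5.29 ± 0.858 to 1.85 ± 0.410 CPM in tumor spheres (−1.52, edgeR adjusted p = 3.83e-05). ZFP3, a zinc finger gene 26.5 kb from SLC52A1, went the opposite way. It had 18, 12 and 9 counts in shCtrl adherent and 1, 2 and 3 in shCtrl tumor sphere libraries, against 153, 153 and 198 and 109, 119 and 106 in shSigma (log2 fold change 3.90 and 5.65, edgeR adjusted p = 2.28e-05 and 1.30e-08). Here the neighbor rose beside a gene that was lost.

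Of the 18 neighbors of gained genes, 2 were higher and 3 lower in shSigma in adherent cells, and 1 was higher and 1 lower in tumor spheres. The shares were 11.1% and 16.7% in adherent cells, beside 7.59% and 6.13% over all genes tested, and 5.56% and 5.56% in tumor spheres, beside 5.94% and 7.17%. ADORA1, the adenosine A1 receptor gene, ends 0.406 kb from the end of MYBPH on the other strand. It had 115, 128 and 166 counts in shCtrl adherent and 465, 426 and 340 in shSigma adherent libraries, and 240, 221 and 242 against 608, 582 and 580 in tumor spheres (log2 fold change 1.83 and 1.26, edgeR adjusted p = 0.00021 and 1.79e-07). MYBPH itself fell in shSigma tumor spheres relative to adherent cells, whereas ADORA1 had its highest counts there. GBX2, a homeobox gene 155.8 kb from IQCA1, was lower in shSigma (log2 fold change −1.45 and −1.18, edgeR adjusted p = 0.000658 and 0.00207). BUB1 and BCL2L11, on the 2 sides of ACOXL, moved apart in adherent cells, with log2 fold changes of −1.02 and 1.11, and were not called in tumor spheres (−0.38 and 0.35).

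**Figure D4:**
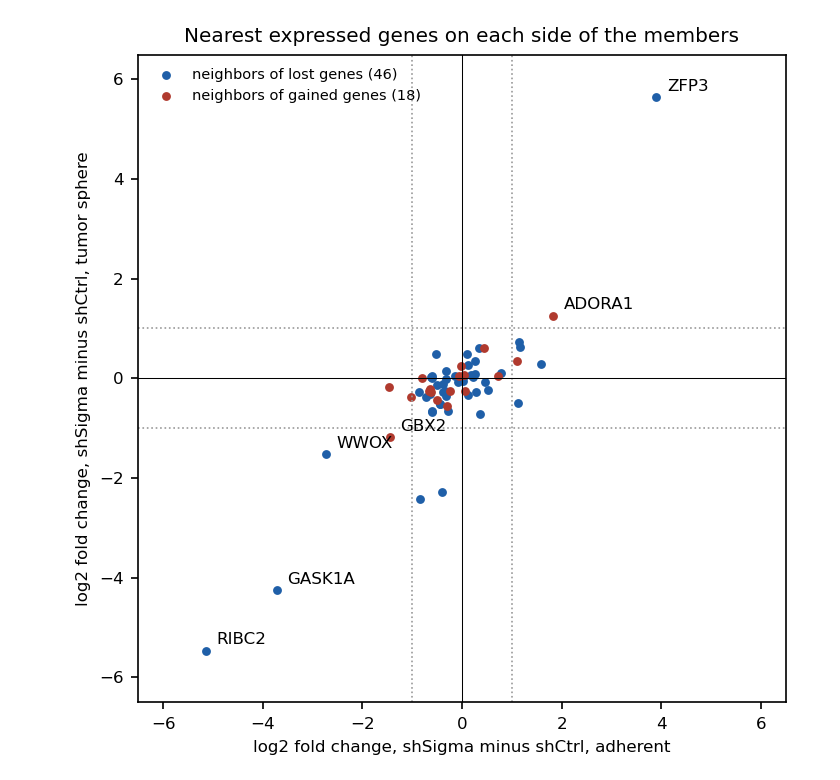
Log2 fold change of shSigma minus shCtrl in adherent cells (x axis) and in tumor spheres (y axis) for the nearest tested genes on each side of the lost genes (blue, 46) and the gained genes (red, 18), with dotted lines at 1 and −1. Most points lie inside the dotted lines, RIBC2 and GASK1A lie far to the lower left, and ZFP3, beside the lost gene SLC52A1, lies at the upper right.

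Family relatives, genes that share the stem of a member's symbol, were examined in the same way. For the lost genes 52 relatives of 13 members were listed, of which 31 were tested for the adherent and 33 for the tumor sphere comparison. Each culture had 5 higher and 2 lower relatives in shSigma, shares of 16.1% and 6.45% in adherent cells and of 15.2% and 6.06% in tumor spheres. Over all genes tested the shares were 7.59% and 6.13% in adherent cells and 5.94% and 7.17% in tumor spheres, and with lists this short the counts mark nothing particular to the relatives. 2 relatives of the lost gene CLIC6 rose: CLIC2 from 0.444 ± 0.199 to 4.14 ± 0.149 CPM in adherent cells (log2 fold change 3.15, edgeR adjusted p = 0.000114) and from 1.37 ± 0.507 to 9.02 ± 0.294 CPM in tumor spheres (2.68, edgeR adjusted p = 3.32e-07), and CLIC3 less evenly (2.37 and 1.10, edgeR adjusted p = 0.0453 and 0.000702). In CLIC3, shSigma adherent replicate 3, with 28 counts beside 118 and 139, lay inside the range of shCtrl. The T-box relatives of TBX18 moved both ways. TBX20, a cardiac T-box factor, rose in both cultures (log2 fold change 1.29 and 1.56, edgeR adjusted p = 0.00156 and 0.00023). In tumor spheres TBX19 rose (1.16, edgeR adjusted p = 0.00414) and TBX1 fell (−2.58, edgeR adjusted p = 0.000558). In adherent cells TBX19 was not called and TBX1 was not tested. The epoxide hydrolase relatives of EPHX3 moved both ways. EPHX4 fell (log2 fold change −1.67 and −1.23, edgeR adjusted p = 0.000538 and 8.11e-05). EPHX1 rose in adherent cells (1.25, edgeR adjusted p = 9.46e-06) and stayed under the limit of fold in tumor spheres (0.43, edgeR adjusted p = 9.01e-06), and EPHX2 was under it in both cultures (0.64 and 0.64).

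Several relatives kept high levels in both lines. PIEZO1, the other mechanically gated channel of its family, had mean levels of 132.5 CPM in shCtrl and 107.5 CPM in shSigma adherent cells and of 215.9 and 228.4 CPM in tumor spheres, and was not called. SMC1A, the mitotic counterpart of SMC1B, was at 236.2 and 171.8 CPM in adherent cells and at 138.1 and 137.0 CPM in tumor spheres, with no call. CLIC1 had no count in any library and SLC52A2 at most a trace (mean 0.0168 CPM in shCtrl tumor spheres). Both are genes of wide expression in other tissues, so these listed zeros are not read as silence.

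For the gained genes 20 relatives of 6 members were listed and 11 were tested in each culture. By edgeR 0 were higher in shSigma in either culture, also at an unadjusted p under 0.05 with the same limit of fold, while DESeq2 called 1 higher in adherent cells and 0 in tumor spheres. A single relative was lower, a share of 9.09% of the 11, and it was the same gene in each culture. It was RHBDL3, the rhomboid relative of RHBDL2, which fell from 1.45 ± 0.476 to 0.424 ± 0.0128 CPM in adherent cells (log2 fold change −1.82, edgeR adjusted p = 0.00211) and from 3.03 ± 0.707 to 0.593 ± 0.268 CPM in tumor spheres (−2.34, edgeR adjusted p = 3.53e-05). PXMP2, the relative of PXMP4, was not called (−0.25 and −0.38). Among relatives of the solute carriers, SLC38A1 and SLC38A2 were at 411.8 CPM or more in every group and not called, while SLC13A1, SLC13A2, SLC13A4 and SLC13A5 were too low to test.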

How the data were processed

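RNA-seq was measured in 12 DU145 libraries. The authors isolated RNA from independent replicates, made directional libraries, sequenced single-end reads, and aligned and quantified them with STAR 2.6.1c on GRCh38.p12. The authors deposited raw counts per gene without normalization, while the annotation, the strand setting and the handling of multi-mapped reads are not given in the sources used here. No column was left unused (0), and 26153 of 28747 identifiers had a symbol in GENCODE release 44, whose gene coordinates are on GRCh38.

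The members and lists were chosen with earlier results of these data known. From the deposited counts, CPM and tests were computed with edgeR 4.0.16 (TMM, filterByExpr at a minimum count of 10, robust quasi-likelihood test, two-sided, Benjamini-Hochberg over all genes tested) in R 4.3.3, each culture or hairpin fitted on its own, n = 3 per group. Folds against a silent group at 0 used a floor of 3 counts over its 3 libraries, and other ratios have 95% exact binomial (Clopper-Pearson) intervals. The 95% intervals of log2 fold changes between cultures are normal approximations from the estimate and its SE. With n = 3 per group they can be too narrow. The 12 highest lost genes and all gained genes get values in every library. The 4 largest rises and falls between cultures among called genes, genes just inside and outside the limits, and neighbors and relatives called in both cultures are named by rule, and other genes by role. The fit, tested on data simulated with 4-fold changes, recovered 195 of 200 changed genes for cultures in shCtrl (13680 genes) and 191 in shSigma (13490 genes). For hairpins it recovered 189 in adherent cells (13623 genes) and 199 in tumor spheres (13651 genes). In the same order, 22, 23, 21 and 12 unchanged genes were called. Changes smaller than 4-fold were not simulated, so these numbers do not give the power for them. DESeq2 1.42.0, other scalings, filters, limits, a replicate block and leaving out each library were alternatives. Replicates of a group differed beyond counting noise (chi-square per gene 2.63 to 41.6), so none was counted as a repeat. Some control and marker genes are not reported here.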

Additional observations from a re-analysis of the deposited data

Results flagged for a closer look

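The hairpin effect differed between cultures, by the interaction of hairpin and culture in an edgeR fit of all 12 libraries, for 27 of the 64 neighbors of members (42.2%, beside 28.4% of all 14175 genes tested) at an adjusted p under 0.05. Values below are the effect in tumor spheres minus that in adherent cells, on the log2 scale, for the neighbors and relatives named in the text, and no explanation was tested. MAL2 and STIL, with the largest such value beside a lost and a gained gene, were chosen after their values were seen.

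ZFP3, beside the lost gene SLC52A1, had a rise in shSigma that was larger in tumor spheres by 1.69 (edgeR adjusted p = 0.0178), where shCtrl had 1 to 3 counts per library. WWOX, on the side of the lost gene CDYL2, had a fall in shSigma that was smaller in tumor spheres (1.14, edgeR adjusted p = 0.00819). MAL2, beside the lost gene TNFRSF11B, had a larger fall there (−1.94, edgeR adjusted p = 1.06e-07), with log2 fold changes of −0.41 in adherent cells and −2.28 in tumor spheres.

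Beside gained genes, ADORA1 had a rise in shSigma that was smaller in tumor spheres (−0.62, edgeR adjusted p = 0.0317), as had BCL2L11 (−0.81, edgeR adjusted p = 0.000228). The falls of BUB1 (0.57, edgeR adjusted p = 0.00424) and of STIL, beside PDZK1IP1 (1.25, edgeR adjusted p = 4.83e-06), were smaller in tumor spheres. Among relatives, EPHX1 had a rise that was smaller in tumor spheres (−0.88, edgeR adjusted p = 1.44e-06). SMC1A (0.45, edgeR adjusted p = 0.00235), SLC38A1 (0.42, edgeR adjusted p = 0.00501) and SLC38A2 (0.62, edgeR adjusted p = 0.00158) had a higher shSigma to shCtrl ratio in tumor spheres than in adherent cells.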

How the results depend on the processing

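The membership depends on the limits: 3 lost and 0 gained genes had no count in the silent line, 19 genes were gained at a limit of 5 silent counts and 18 at a minimum of 5 expressed counts, and 12 lost genes were left at a minimum of 20. Without single libraries the rule gave 23 to 25 lost and 9 to 11 gained genes. For cultures, also asking an absolute log2 fold change over 1 left 5 lost genes higher and 0 lower and 2 gained genes lower, and DESeq2 called 2 gained genes lower. Without single libraries, 5 to 7 lost genes were higher and 2 to 4 lower, and 0 gained genes were higher and 1 to 4 lower. With the nearest 2 genes on each side, 92 neighbors of lost genes and 36 of gained genes were tested. Of the 92, 10 were lower in adherent cells, beside 6.13% of all genes tested. In tumor spheres 2 of the 92 were higher and 12 lower, beside 5.94% and 7.17% of all genes tested. Of the 36, 6 were higher in adherent cells and 2 in tumor spheres, beside 7.59% and 5.94%. Without single libraries the neighbors of gained genes lower in tumor spheres were 0 to 1. With no filter on low counts 1 relative of the lost genes was lower and 1 of the gained genes higher in adherent cells, and DESeq2 gave 1 for the latter. Without single libraries, relatives lower in adherent cells were 1 to 2 for lost and 1 to 2 for gained genes, and in tumor spheres 0 to 1 relatives of gained genes were higher and 1 to 2 lower.

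The replicate numbers did not pair the libraries: deviations of same-numbered libraries correlated at −0.66 to 0.24, with mixed signs. With the replicate block, 6 lost genes were higher and 3 lower, 3 gained genes were lower, and 1 relative of the lost genes was lower in adherent cells instead of 2.

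Of 416 values of members between cultures under the alternatives, 348 kept direction and side of the threshold, 40 lost their call, 10 gained one and 18 changed sign, all 18 for genes that were not called. SMC1B was −0.0225 with DESeq2, −0.0156 with its size factors in edgeR, −0.0127 with no filter, −0.0196 with the replicate block and −0.160 to 0.180 without single libraries. MIXL1 was −0.00686, −0.00284 and −0.000559 under the first 3 of these and −0.104 to 0.0531 without single libraries. Without single libraries RNF175 was −0.0185 to 0.423, CTTNBP2 −0.102 to 0.355 and PDZK1IP1 −0.181 to 0.221. Members with under 20 counts per library are known only to wide intervals at this depth.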
